A study of Mus musculus with 6 samples.

Results

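The carriers described here move small carboxylates and sulphate across cell membranes: the sodium-coupled monocarboxylate carriers Slc5a8 and Slc5a12, the sodium-coupled sulphate and dicarboxylate carriers Slc13a1, Slc13a2 and Slc13a3, and the monocarboxylate carriers Slc16a1, Slc16a4, Slc16a7, Slc16a9 and Slc16a12. They were taken by symbol from the gene count table, which held all 10 among 24434 symbols, and all 10 were among the 16373 genes that passed the filter on low counts. RNA came from whole kidneys of mice fed normal chow, in 3 libraries labelled db/db, the diabetic model, and 3 labelled db/m, the control. The db allele disrupts the leptin receptor: homozygous animals overeat, gain fat and turn diabetic, and db/m mice with a single db allele stay lean. The labels state neither sex, age and strain nor the animal behind each library, so a p-value here reflects the scatter among libraries, which may be technical.

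In the proximal tubule some of these carriers recover filtered carboxylates or sulphate from the urine. Slc5a8 and Slc5a12 take up lactate, pyruvate and ketone bodies with sodium from the lumen, Slc13a2 takes up citrate and succinate from the lumen, and Slc13a3 brings dicarboxylates in from the blood side. Slc13a1 reabsorbs sulphate. The Slc16a carriers work without sodium, and Slc16a1 and Slc16a7 exchange lactate, pyruvate and ketone bodies with a proton. In the mouse kidney Slc5a12 is known mainly from the early part of the proximal tubule and Slc5a8 from its straight end, the S3 segment.

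Total counts were 27023129 to 29868789 in the db/db libraries and 25937756 to 35931140 in the db/m libraries. Replicates of 1 label differed by more than counting noise (17.2 to 64.8 chi-square units per degree of freedom), and each was treated as a replicate. Lepr, the leptin receptor gene, stood at 5.66, 2.54 and 5.15 CPM (counts scaled to a common library size) in db/db replicates 1 to 3 and at 2.94, 2.48 and 3.61 CPM in db/m replicates 1 to 3. A count over the whole gene need not show the db splice change, so this leaves the genotypes unchecked, and the groups keep the names of their labels. Early proximal tubule markers (13 of 13 in the table, none at 0) summed to 19292 to 22726 CPM in db/db libraries and 16932 to 22227 CPM in db/m libraries, so the groups overlapped. Markers of the S3 segment (5 of 5, none at 0) summed to 2837 to 3889 CPM in db/db libraries and 192 to 413 CPM in db/m libraries. These 5 genes rose by unlike amounts, from 6.95-fold (Atp11a) to 56.4-fold (Acsm3), so their sum does not measure the size of the segment. Summed adipocyte markers (5 of 5 in the table, Lep at 0 in some libraries) were highest in db/db replicate 3 at 283 CPM and db/m replicate 3 at 155 CPM, against 50.6 to 71.2 CPM in the other 4 libraries. Of the 14 marker lists, S3 and 3 others did not overlap between the labels, and those 3 were lower in db/db libraries. Distal convoluted tubule markers (3 of 3 in the table, none at 0, all 3 called lower) summed to 551 to 648 CPM in db/db libraries and 891 to 1268 CPM in db/m libraries. Principal cell markers (4 of 4, none at 0, 2 called lower) summed to 388 to 565 CPM in db/db libraries and 749 to 1171 CPM in db/m libraries. Adrenal markers (4 of 4, Cyp11a1 and Cyp11b1 at 0 in some libraries) summed to 3.61 to 4.34 CPM in db/db libraries and 6.60 to 15.1 CPM in db/m libraries. In whole kidney RNA, fewer or more cells of a type and less or more RNA per cell cannot be told apart.

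Most of the carriers differed between the labels, and they went both ways. Of the 10 carriers, 3 were higher and 5 lower in db/db libraries by the edgeR quasi-likelihood test with a Benjamini-Hochberg adjusted p under 0.05, and 2 were not called. Of all genes tested 24.0% were called, 13.1% as higher and 10.8% as lower. The groups did not overlap for the same 8 carriers that were called, against 44.6% of all genes. The median log2 fold change was -0.051 over the 10 carriers and -0.057 over all genes, and the median of its absolute size was 0.62 for the carriers and 0.33 for all genes. The 3 that rose were Slc16a4, Slc5a8 and Slc16a9, and the 5 that fell were Slc16a7, Slc16a1, Slc13a2, Slc5a12 and Slc13a1. Without replicate 3 of both groups, the libraries with the most adipocyte marker RNA, 1 carrier was called higher (Slc5a8) and 1 lower (Slc16a1), and leaving out any single library left 3 higher and 1 to 3 lower.

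**Figure D1:**
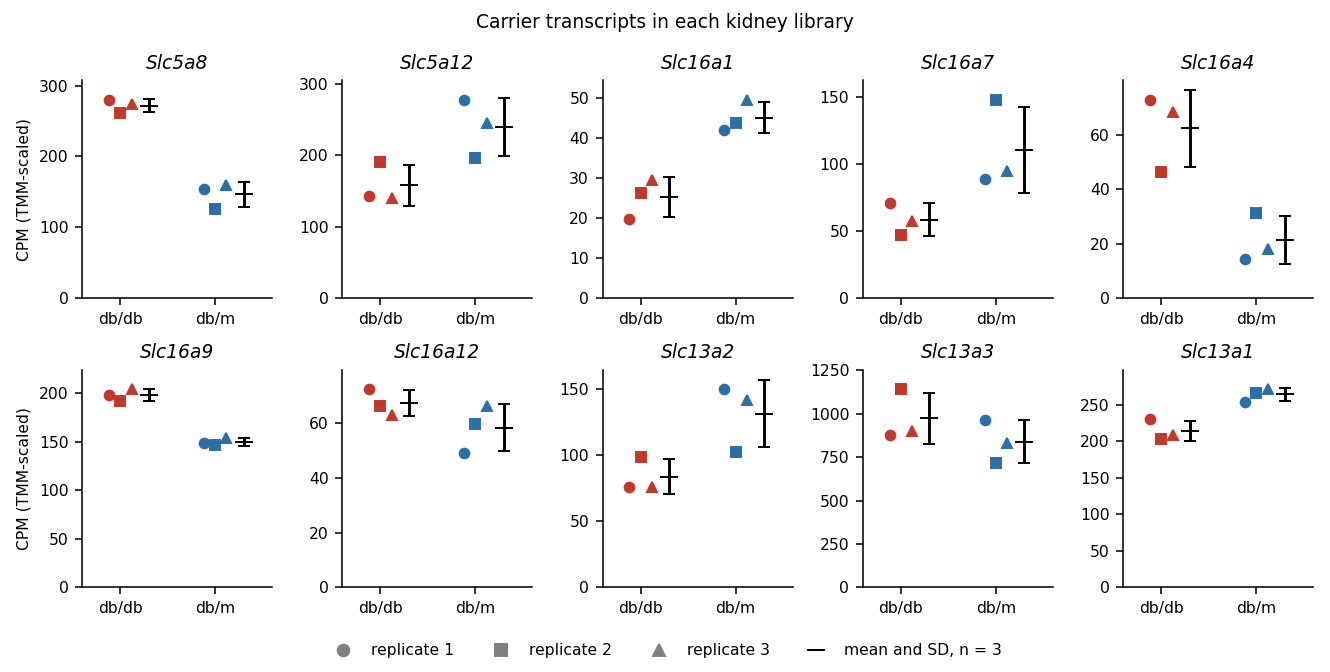
CPM scaled by TMM library size (vertical axes, each from 0) of the 10 carriers in each of 3 db/db and 3 db/m libraries, with the mean and SD over 3 libraries beside the points. The groups do not overlap for 8 carriers, and overlap for Slc16a12 and Slc13a3.

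The sodium-coupled monocarboxylate carriers, which share lactate and other short acids as substrates, changed in opposite directions. Slc5a8 was at 279.8, 261 and 274 CPM in db/db libraries and 154, 126 and 159.95 CPM in db/m libraries. The db/db values lay close together and well above every db/m value. Its means were 272 ± 9.33 CPM in db/db libraries and 147 ± 18.0 CPM in db/m libraries (SD, n = 3 each), and the log2 fold change was 0.89 (SE 0.11), with adjusted p = 0.00195 by edgeR. This call held under all 16 alternatives tried, with an adjusted p of 0.0231 at most.

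Slc5a12 was at 143, 191 and 139.8 CPM in db/db libraries and 277, 195 and 245 CPM in db/m libraries. The groups came close to touching, because db/db replicate 2 was the highest of its group and db/m replicate 2 the lowest of its own. The means were 158 ± 28.6 CPM in db/db libraries and 239 ± 41.2 CPM in db/m libraries (SD, n = 3 each), and the log2 fold change was -0.60 ± 0.17 (SE; edgeR adjusted p = 0.0399). The call was lost without db/db replicate 1 (adjusted p = 0.126), db/db replicate 3 (0.130), db/m replicate 1 (0.0972) or db/m replicate 3 (0.0855), while the log2 fold change stayed between -0.86 and -0.47 in every alternative.

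Within each library the ratio of Slc5a8 to Slc5a12 counts, which does not depend on library scaling, was 1.95, 1.37 and 1.96 in db/db libraries and 0.554, 0.646 and 0.652 in db/m libraries. Slc5a8 had more counts than Slc5a12 in all db/db libraries and fewer in all db/m libraries. The difference in log2 ratio was 1.50 (two-sided exact permutation p = 0.1, adjusted p = 0.133 over the 4 ratios compared). With 3 libraries against 3 such a test cannot go below 0.1.

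The proton-linked carriers of lactate and ketone bodies, Slc16a1 and Slc16a7, both fell. Slc16a1, which encodes MCT1, was at 19.9, 26.4 and 29.6 CPM in db/db libraries and 42.1, 43.8 and 49.6 CPM in db/m libraries. All db/db values lay well below the lowest db/m value. The means were 25.3 ± 4.92 CPM in db/db libraries and 45.2 ± 3.94 CPM in db/m libraries (SD, n = 3 each), giving a log2 fold change of -0.84 ± 0.15 (SE; edgeR adjusted p = 0.00919), and the call held under all 16 alternatives, with an adjusted p of 0.0396 at most.

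Slc16a7, which encodes the higher-affinity carrier MCT2, was at 71.0, 47.0 and 57.5 CPM in db/db libraries and 89.0, 148 and 94.7 CPM in db/m libraries. All db/db values were below all db/m values, and db/m replicate 2 stood above the other two. The means were 58.5 ± 12.1 CPM in db/db libraries and 110 ± 32.4 CPM in db/m libraries (SD, n = 3 each), and the log2 fold change was -0.92 ± 0.23 (SE; edgeR adjusted p = 0.0266). The call was lost without db/db replicate 2 (adjusted p = 0.0875), db/db replicate 3 (0.0854) or db/m replicate 2 (0.0555), and the log2 fold change was -0.65 without db/m replicate 2. The summed distal convoluted tubule and principal cell markers, lower in db/db libraries as the 5 carriers that fell were, also peaked in db/m replicate 2, at 1268 and 1171 CPM. Of those carriers only Slc16a7 peaked there. Among db/m libraries Slc5a12 (195 CPM) and Slc13a2 (103 CPM) were lowest in replicate 2, and Slc16a1 and Slc13a1 were highest in replicate 3. The part of these markers in the falls was not tested. The ratio of Slc16a1 to Slc16a7 counts was 0.280, 0.562 and 0.514 in db/db libraries and 0.473, 0.296 and 0.524 in db/m libraries. These overlapped, and the log2 difference of 0.047 had a two-sided exact permutation p = 0.8 (adjusted p = 0.8).

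Slc16a4 had the largest change of the 10 carriers. It encodes an Slc16 family protein whose substrates are not well established. It was at 72.7, 46.3 and 68.2 CPM in db/db libraries and 14.5, 31.1 and 18.0 CPM in db/m libraries. The groups were separate, with db/db replicate 2 the lowest of its group and db/m replicate 2 the highest of its own. The means were 62.4 ± 14.1 CPM in db/db libraries and 21.2 ± 8.75 CPM in db/m libraries (SD, n = 3 each), giving a log2 fold change of 1.55 ± 0.30 (SE; edgeR adjusted p = 0.0112), or 2.93-fold. The call was kept without any 1 library, and was lost only without replicate 3 of both groups (adjusted p = 0.0952) among the 16 alternatives.

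Slc16a9, linked in human genetics to carnitine and urate levels, was higher by a small and even amount. It was at 199, 192 and 204 CPM in db/db libraries and 148, 147 and 154 CPM in db/m libraries. The coefficient of variation was 3.06% in db/db libraries and 2.59% in db/m libraries, the smallest of the 10 carriers in both groups. The means were 198 ± 6.07 CPM in db/db libraries and 150 ± 3.88 CPM in db/m libraries (SD, n = 3 each), giving a log2 fold change of 0.40 ± 0.072 (SE; edgeR adjusted p = 0.00832). With total counts only, a scaling that moved the median log2 fold change of all genes by over 0.1, to -0.32, the value was 0.14 (adjusted p = 0.180).

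Slc16a12, which carries creatine, was not called. It was at 72.4, 66.3 and 63.2 CPM in db/db libraries and 49.1, 59.8 and 66.5 CPM in db/m libraries. Its highest db/m value lay above 2 of the db/db values. The log2 fold change was 0.20 with a 95% interval of -0.085 to 0.49 (adjusted p = 0.261 by edgeR), and with total counts only it was -0.061.

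**Figure D2:**
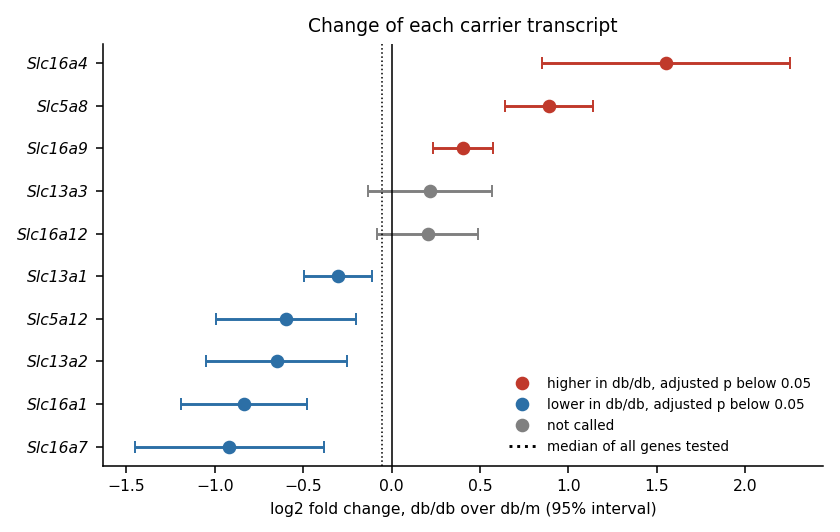
Log2 fold change of each carrier, db/db over db/m (horizontal axis), with its 95% interval from the edgeR fit. Red and blue points passed an adjusted p below 0.05 and grey points did not, and the dotted line is the median of all genes tested at -0.057. The intervals of Slc13a3 and Slc16a12 span 0.

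Of the sodium-coupled citrate and dicarboxylate carriers, the luminal one fell and the blood-side one was not called. Slc13a2, or NaDC1, was at 76.3, 99.0 and 75.9 CPM in db/db libraries and 150.0, 103 and 142 CPM in db/m libraries. As for Slc5a12, db/db replicate 2 and db/m replicate 2 nearly met. The means were 83.7 ± 13.2 CPM in db/db libraries and 132 ± 25.2 CPM in db/m libraries (SD, n = 3 each), giving a log2 fold change of -0.65 ± 0.17 (SE; edgeR adjusted p = 0.0313). The call was lost without db/db replicate 1 (adjusted p = 0.103), db/db replicate 3 (0.108), db/m replicate 1 (0.0785) or db/m replicate 3 (0.0767), with values between -0.91 and -0.52 in every alternative. An antisense gene, Slc13a2os, overlaps 632 exon bases of Slc13a2 in GENCODE M21 and stood at 1.15 to 1.89 CPM in db/db libraries and 1.39 to 4.41 CPM in db/m libraries.

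Slc13a3, or NaDC3, was at 877, 1141 and 902 CPM in db/db libraries and 966, 718 and 832 CPM in db/m libraries. The groups overlapped, with db/db replicate 2 the highest and db/m replicate 2 the lowest of all. The means were 973 ± 146 CPM in db/db libraries and 839 ± 124 CPM in db/m libraries (SD, n = 3 each), and the log2 fold change of 0.22 had a 95% interval of -0.14 to 0.57 (adjusted p = 0.324 by edgeR). With total counts only it was -0.045.

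The ratio of Slc13a2 to Slc13a3 counts was nearly constant within a label. It was 0.0871, 0.0868 and 0.0841 in db/db libraries and 0.155, 0.143 and 0.170 in db/m libraries, so the groups did not overlap. The log2 difference was -0.86 (two-sided exact permutation p = 0.1, adjusted p = 0.133), and it lay between -0.92 and -0.80 when any 1 library was left out.

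The sulphate carrier gene Slc13a1 fell slightly. It was at 229.8, 203 and 208 CPM in db/db libraries and 254, 267 and 271 CPM in db/m libraries. The highest db/db value was below the lowest db/m value. The means were 214 ± 14.1 CPM in db/db libraries and 264 ± 8.67 CPM in db/m libraries (SD, n = 3 each), giving a log2 fold change of -0.30 ± 0.082 (SE; edgeR adjusted p = 0.0350). Leaving out any 1 of the 6 libraries, or dropping the filter, ended the call. The adjusted p was 0.0501 without db/db replicate 1, 0.107 without db/db replicate 2, 0.126 without db/db replicate 3, 0.0543 without db/m replicate 1, 0.105 without db/m replicate 2, 0.0832 without db/m replicate 3 and 0.0529 with no filter on low counts. The ratio of Slc13a1 to Slc13a3 counts was 0.262, 0.178 and 0.231 in db/db libraries and 0.263, 0.372 and 0.326 in db/m libraries. The highest db/db value and the lowest db/m value differed only in the third digit, and the log2 difference was -0.52 (two-sided exact permutation p = 0.1, adjusted p = 0.133).

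**Figure D3:**
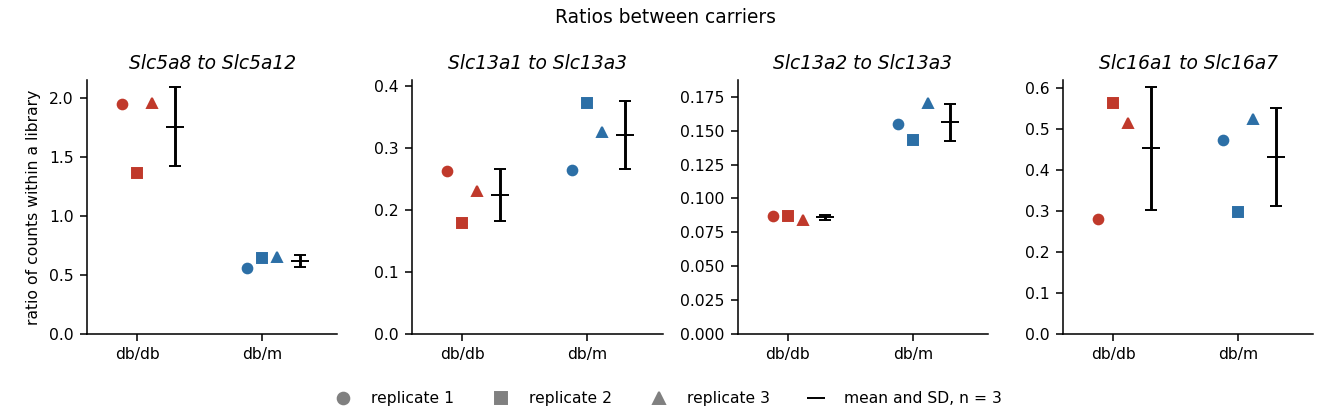
Ratio of the counts of 2 carriers within each library (vertical axes, each from 0), with the mean and SD over 3 libraries beside the points. Slc5a8 to Slc5a12 is above 1 in every db/db library and below 1 in every db/m library, Slc13a2 to Slc13a3 is 0.0841 to 0.0871 in db/db libraries and 0.143 to 0.170 in db/m libraries, and Slc16a1 to Slc16a7 overlaps.

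Dividing CPM by the exon length of each gene (the union of its exons in GENCODE M21, in kb, since the authors' annotation is not given) allowed levels to be set side by side. Slc13a3 was the most abundant carrier in both groups on this scale, at 187 ± 27.9 CPM per kb in db/db libraries and 161 ± 23.8 CPM per kb in db/m libraries (SD, n = 3 each). In db/db libraries Slc16a9 (51.3 CPM per kb) and Slc5a8 (50.9 CPM per kb) came next and overlapped, followed by Slc5a12 (38.9 CPM per kb) and Slc13a2 (34.7 CPM per kb), which also overlapped. In db/m libraries Slc5a12 (58.9 CPM per kb) and Slc13a2 (54.5 CPM per kb) came next and overlapped, then Slc16a9 (38.8 CPM per kb) and Slc13a1 (34.2 CPM per kb). Slc5a8 thus ranked 3 in db/db libraries and 6 in db/m libraries, where its mean was 27.5 CPM per kb. At the low end, Slc16a12 and Slc16a4 overlapped at 16.1 CPM per kb each in db/db libraries, above Slc16a1 at 5.71 and Slc16a7 at 4.94 CPM per kb, which overlapped each other. In db/m libraries Slc16a1 at 10.2 CPM per kb and Slc16a7 at 9.33 CPM per kb overlapped, as did Slc16a7 and Slc16a4, and Slc16a4 was last at 5.47 CPM per kb.

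**Figure D4:**
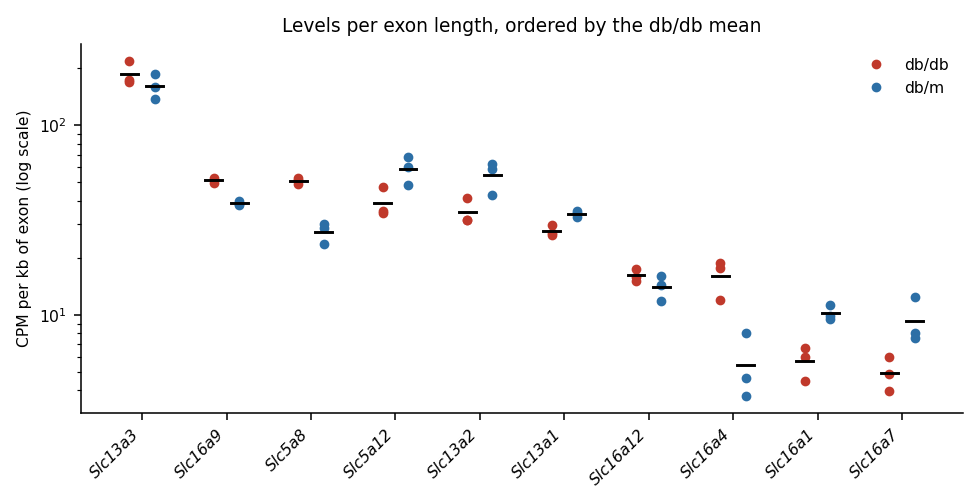
CPM per kb of exon (log scale) of each carrier in 3 db/db and 3 db/m libraries (points), with group means as bars, ordered by the db/db mean. Slc13a3 is highest in both groups, and Slc16a4 ranks 8 in db/db libraries and 10 in db/m libraries.

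The libraries of a label were not alike for some of the carriers. Slc5a12, Slc13a2 and Slc13a3 were each highest in db/db replicate 2 within db/db and lowest in db/m replicate 2 within db/m. The summed early proximal tubule markers followed the same libraries, with 22726 CPM in db/db replicate 2 against 19817 and 19292 CPM in db/db replicates 1 and 3, and with 16932 CPM in db/m replicate 2 against 22227 and 18001 CPM in db/m replicates 1 and 3. Counts were therefore also expressed per 1000 counts of these 13 markers in the same library, a choice made after seeing the data and given without a test. Of the 13 markers 1 was called higher and 3 lower. On this scale Slc5a12 was at 7.22, 8.40 and 7.25 in db/db libraries and 12.5, 11.5 and 13.6 in db/m libraries, with a log2 difference of -0.72. Slc13a2 was at 3.85, 4.36 and 3.93 in db/db libraries and 6.75, 6.08 and 7.88 in db/m libraries, with a log2 difference of -0.76. Both log2 differences were larger in size than in CPM (-0.60 and -0.65), but the log2 value of every carrier was lower on this scale. Slc16a1, for example, went from -0.84 to -0.97 and Slc5a8 from 0.89 to 0.78. The marker sum divides all carriers alike, so this shift is not particular to Slc5a12 and Slc13a2. Slc13a3 averaged 47.1 ± 2.99 in db/db libraries and 44.0 ± 1.98 in db/m libraries (SD, n = 3 each) and overlapped. Slc5a8 averaged 13.3 ± 1.53 in db/db libraries and 7.75 ± 1.02 in db/m libraries without overlap, whereas Slc16a9 and Slc13a1 overlapped on this scale. Slc5a8 rose in the libraries in which the S3 markers were all higher (5 of 5 called), and the part of that segment in its change was not tested.

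**Figure D5:**
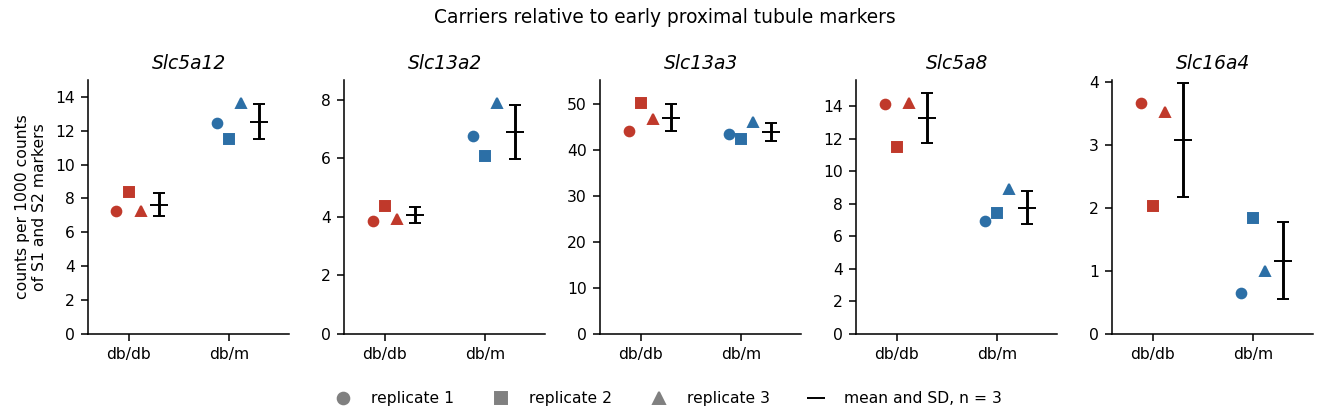
Counts of 5 carriers per 1000 counts of the 13 early proximal tubule (S1 and S2) markers in the same library (vertical axes, each from 0), with the mean and SD over 3 libraries beside the points. Slc5a12 and Slc13a2 are lower and Slc5a8 and Slc16a4 higher in every db/db library than in any db/m library, and Slc13a3 overlaps.

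The sequences before the starts of the 3 carriers that rose, and of Slc16a1, the only carrier whose fall held under all 16 alternatives, are shown because these genes moved together or apart between the labels. RefSeq promoter windows were found for 7 of the 10 carriers, and the 250 bases before the start are given for 4 of them, 5′ to 3′ on the plus strand of GRCm38.p6. They lie at chr3:107290980-107291229 (Slc16a4), chr10:88885742-88885991 (Slc5a8), chr10:70245026-70245275 (Slc16a9) and chr3:104638414-104638663 (Slc16a1). Capitals mark matches on either strand to 6 motifs: AGAACA (the hexamer of androgen and glucocorticoid receptors), AGGTCA (the hexamer of many other nuclear receptors), GTTAAT (the core of HNF1 sites), CACGTG (the E-box), GGGCGG (the GC box) and TATAAA (the TATA box).
Slc16a4: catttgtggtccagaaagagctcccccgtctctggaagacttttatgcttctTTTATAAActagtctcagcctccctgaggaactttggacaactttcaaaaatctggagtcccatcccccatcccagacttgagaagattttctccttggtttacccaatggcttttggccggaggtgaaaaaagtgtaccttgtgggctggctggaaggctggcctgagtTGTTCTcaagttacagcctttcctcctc
Slc5a8: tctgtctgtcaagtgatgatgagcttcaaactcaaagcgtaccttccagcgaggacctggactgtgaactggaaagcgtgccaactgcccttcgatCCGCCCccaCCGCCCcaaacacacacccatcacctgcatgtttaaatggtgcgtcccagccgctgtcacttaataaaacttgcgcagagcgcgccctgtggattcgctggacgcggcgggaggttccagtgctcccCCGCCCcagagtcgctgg
Slc16a9: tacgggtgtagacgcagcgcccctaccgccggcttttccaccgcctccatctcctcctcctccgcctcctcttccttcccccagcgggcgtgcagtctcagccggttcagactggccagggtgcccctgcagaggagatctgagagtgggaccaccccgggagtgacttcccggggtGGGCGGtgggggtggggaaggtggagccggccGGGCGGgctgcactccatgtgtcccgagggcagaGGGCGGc
Slc16a1: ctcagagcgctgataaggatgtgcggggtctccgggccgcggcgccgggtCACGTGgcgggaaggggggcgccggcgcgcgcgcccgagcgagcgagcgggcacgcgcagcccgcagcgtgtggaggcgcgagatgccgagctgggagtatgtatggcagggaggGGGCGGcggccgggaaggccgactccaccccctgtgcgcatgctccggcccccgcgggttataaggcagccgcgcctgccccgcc
The GC box was present in the windows of Slc5a8, Slc16a9 and Slc16a1 and in 32.7% of 32851 RefSeq windows of the same length. AGAACA was matched on the reverse strand in the Slc16a4 window alone of the 4, 28 bases before the start, and in 16.1% of all windows. Slc16a4 also held overlapping TATAAA matches on both strands, 196 and 198 bases before the start, a motif found in 12.4% of windows. CACGTG was matched in the Slc16a1 window, 200 bases before the start, and in 6.02% of windows. AGGTCA, in 14% of windows, and GTTAAT, in 6.43%, had no match in these 4 windows. A match describes the letters only.

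Among the libraries, the genes whose log2 CPM ran most like that of a called carrier are given as a description, since the difference between the labels enters each value. Over 6 libraries Slc5a8 was most like Rap1b (Pearson r = 0.998), Fhl1 (0.998) and Dnajc22 (0.997), and Slc16a9 like Tspan3 (0.999), Xrcc5 (0.998) and Pole4 (0.998). Slc5a12 was most like Osgep (0.996), Tmed8 (0.995) and Bud13 (0.995), and Slc13a2 like Gltpd2 (0.998), Tmed8 (0.997) and Trim62 (0.994), so that Tmed8 was named for both. Slc13a1 ran close to Ythdf2 (0.997) and Il17rd (0.997), Slc16a1 like Ikzf5 (0.999), Tmod3 (0.998) and Bdp1 (0.995), Slc16a4 like Plk5 (0.996), Srp68 (0.995) and Slc25a13 (0.994), and Slc16a7 like Plppr4 (0.997), Hip1r (0.995) and Mapkapk3 (0.995).

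The other members of the same families also went both ways. Of 9 other Slc16 carriers 3 rose, 2 fell and 4 were not called, and the same counts were found with total counts only. Among those that rose, Slc16a13 was higher by 0.84 (SE 0.11) and Slc16a14 by 1.18 (SE 0.19) on the log2 scale. Slc16a10, which carries aromatic amino acids and thyroid hormone, had -1.03 (SE 0.095, adjusted p = 0.000808 by edgeR), and Slc16a11 had -0.55 (SE 0.13, adjusted p = 0.0206), a call that ended without any 1 db/db library or without db/m replicate 2 (adjusted p = 0.0540 to 0.0798). Of the other Slc13 carriers, Slc13a4, a sulphate carrier, averaged 7.79 ± 1.13 CPM in db/db libraries and 4.21 ± 1.02 CPM in db/m libraries (SD, n = 3 each, log2 fold change 0.89, adjusted p = 0.0308 by edgeR). That call was lost with scaling by total counts alone (adjusted p = 0.0610), and when any 1 library other than db/m replicate 1 was left out (adjusted p = 0.0577 to 0.0963), and Slc13a5 was not called.

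Partners that hold the carriers at the membrane rose in part. Of 7 measured, 3 rose and 0 fell (edgeR, with 0 lower at an unadjusted p below 0.05; DESeq2 called 4 and 0, and 1 rose and 2 fell with total counts only). Basigin (Bsg), the chaperone of MCT1, averaged 610 ± 34.0 CPM in db/db libraries and 468 ± 9.59 CPM in db/m libraries (SD, n = 3 each, log2 fold change 0.38, SE 0.082, adjusted p = 0.0161 by edgeR). Embigin (Emb), known as the chaperone of MCT2, was higher by 0.51 (SE 0.11, adjusted p = 0.0157), so both chaperone genes rose where the genes of their carriers fell. Neither chaperone was called with total counts only (adjusted p = 0.235 for Bsg and 0.130 for Emb). Both calls were also lost with the replicate number as a block (edgeR adjusted p = 0.0710 for Bsg and 0.0506 for Emb). The same held without replicate 3 of both groups (0.0986 for Bsg and 0.101 for Emb). Pdzk1, a scaffold of brush border carriers, was higher by 0.57 (SE 0.093, adjusted p = 0.00593).

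Enzymes that use lactate and pyruvate changed in both directions. Of 18 tested, 6 rose, 2 fell and 10 were not called, with a list median of 0.20 on the log2 scale, and with total counts only 4 rose and 3 fell. Ldhd, which oxidises D-lactate in mitochondria, averaged 1411 ± 22.4 CPM in db/db libraries and 389.7 ± 84.6 CPM in db/m libraries (SD, n = 3 each), giving a log2 fold change of 1.86 ± 0.16 (SE; edgeR adjusted p = 0.000557). Mpc1, a subunit of the mitochondrial pyruvate carrier, was higher by 0.91 (SE 0.11) and Pcx, pyruvate carboxylase, by 0.72 (SE 0.11). The pyruvate dehydrogenase kinases split, with Pdk3 higher by 1.45 (SE 0.13) and Pdk1 at -1.08 (SE 0.11, adjusted p = 0.00131 by edgeR).

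Of 28 genes that make or use citrate and other dicarboxylates, 4 rose, 1 fell and 23 were not called, with a list median of 0.14 and against 24.0% of all genes called. DESeq2 called 10 higher and 1 lower, while the quasi-likelihood test called 9 higher without db/m replicate 1 and 2 higher without any 1 of the other libraries. With total counts only 2 rose and 5 fell. Malic enzyme Me1 averaged 574 ± 24.4 CPM in db/db libraries and 142 ± 30.9 CPM in db/m libraries (SD, n = 3 each), giving a log2 fold change of 2.01 ± 0.16 (SE; edgeR adjusted p = 0.000435). Sucnr1, the receptor for succinate, averaged 33.6 ± 2.37 CPM in db/db libraries and 13.3 ± 5.35 CPM in db/m libraries (SD, n = 3 each), giving a log2 fold change of 1.35 ± 0.27 (SE; edgeR adjusted p = 0.0129). The cytosolic isocitrate dehydrogenase gene Idh1 had -0.76 (SE 0.089, adjusted p = 0.00190). Slc25a1, the mitochondrial citrate carrier, and Idh3g, a subunit of the citric acid cycle isocitrate dehydrogenase, had 0.36 and 0.31, and neither passed with total counts only (adjusted p = 0.354 and 0.602). Both calls were also lost when any 1 library other than db/m replicate 1 was left out (adjusted p = 0.0535 to 0.0847 for Slc25a1 and 0.0793 to 0.110 for Idh3g), and Idh3g with upper quartile scaling (0.0601).

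Of 14 tested genes of sulphate handling 3 rose, 1 fell and 10 were not called, against 24.0% of all genes called. DESeq2 called 6 higher and 2 lower, and with total counts only 2 rose and 3 fell. Without any 1 library, 3 to 4 rose, and 1 fell without db/m replicate 2 and 0 without any other. Slc26a1, the blood-side sulphate exchanger that works in series with Slc13a1, was higher by 0.60 (SE 0.10, adjusted p = 0.00753 by edgeR), opposite in sign to Slc13a1. Tst, a sulphur transferase, and Slc35b2, which carries activated sulphate into the Golgi, were higher by 0.84 (SE 0.14) and 0.48 (SE 0.090). Papss2, which makes activated sulphate, had -0.30 (SE 0.091, adjusted p = 0.0491), a call lost without any 1 library (adjusted p = 0.0698 to 0.140).

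Genes for substrates of the remaining carriers were examined as well. Of 7 ketone body genes 5 rose and 1 fell, with Aacs, which activates acetoacetate in the cytosol, higher by 1.81 (SE 0.19, adjusted p = 0.00123 by edgeR), and with total counts only 3 rose and 1 fell. Of 14 creatine and carnitine genes 5 rose and 2 fell, and 1 rose and 3 fell with total counts only, while 2 to 3 rose without any 1 library other than db/m replicate 1. Tmlhe, the first enzyme of carnitine synthesis, was higher by 1.43 (SE 0.18), and Bbox1, its last enzyme, averaged 1.20 ± 0.435 CPM in db/db libraries and 8.97 ± 7.48 CPM in db/m libraries (SD, n = 3 each, adjusted p = 0.0248 by edgeR, 0.103 with limma-voom). The Bbox1 call was also lost without any 1 db/db library (adjusted p = 0.0615 to 0.0899) or without db/m replicate 2 (0.0523). Of 8 urate and organic anion exchangers 5 rose and 0 fell (edgeR, with 0 lower at an unadjusted p below 0.05; DESeq2 also 5 and 0, but 5 and 2 with total counts only), among them Slc17a3, higher by 2.43 (SE 0.13), and Abcg2, higher by 0.67 (SE 0.085).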

How the data were processed

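The authors deposited 1 table of raw counts by gene symbol. Poly(A) RNA went into strand-specific libraries, per the labels' protocols. The submitters' processing notes name fastp, FastQC, HISAT2, SAMtools, StringTie and DESeq2. No source used here gives the build, annotation or strand setting. Columns were matched to libraries by name (db1 for the title db/db1, and so on). Counts of 2 (4164 values) outnumbered counts of 1 (1318), so fragments may be counted doubly.

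Low genes were removed with filterByExpr and libraries scaled by TMM (factors between 0.901 and 1.12). Groups were compared with edgeR 4.0.16 in R 4.3.3 (glmQLFit, glmQLFTest, no covariates, Benjamini-Hochberg), checked on simulated data. Log2 fold changes are db/db over db/m, and SE is their size over the square root of F. Of the alternatives, 15 were planned and 1 was added after seeing the data, and they included DESeq2 1.42.0 and voom in limma 3.58.1.

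All carriers are named, as are up to 5 called genes by smallest p from each related list and the 3 genes most like each called carrier; some genes that this rule names are left out. Carriers and lists were chosen with earlier results of these data known. The floor of 3 counts was 0.0835 to 0.116 CPM, far below every carrier, and covers counting error only. Genes that overlap Slc16a7 and Slc16a9 on the opposite strand in GENCODE M21 had no entry under their symbols in the count table. The counts of Slc16a7 and Slc16a9 are uncertain to that extent.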

Additional observations from a re-analysis of the deposited data

How the results depend on the processing

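The calls on Slc5a8 and Slc16a1 held under all 16 alternatives. In all, 129 of 160 values of single carriers kept their direction and side of the threshold, 29 kept their direction and lost the call, and 2 turned round: with total counts only Slc13a3 had -0.045 and Slc16a12 -0.061 on the log2 scale, neither called. All genes called numbered 2151 higher and 1774 lower, against 1072 higher and 4883 lower with total counts only. Leaving out 1 library gave 3 carriers higher each time and 1 to 3 lower, with 1374 to 2011 of all genes higher and 851 to 1523 lower. Without replicate 3 of both groups, 1 carrier was higher and 1 lower, with 1052 and 660 of all genes. The replicate number as a block left 3 carriers higher and 1 lower, and 1313 and 973 of all genes. Same-numbered libraries had deviations correlated at -0.15, 0.057 and 0.14, not each highest with its own number. With 3 libraries per label these correlations cannot decide whether the numbers mark a pairing. The log2 difference of the Slc16a1 to Slc16a7 ratio was -0.20 to 0.36 when 1 library was left out, and no library turned the other 3 ratios. The cause of these changes was not tested, and the fits that leave out libraries also rest on fewer of them. The other genes named kept their direction in all 608 comparisons and lost the call in 73.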
